A study of Mus musculus with 6 samples.

Results

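The mitochondrial ribosomal protein genes were taken as every gene whose single symbol in the array's platform table began with Mrpl or Mrps followed by a digit. This gave 76 genes among the 18193 single-symbol genes of the array, of which 47 carried large subunit names (Mrpl) and 29 small subunit names (Mrps). Where a gene had several probe sets, each a group of short probes for 1 transcript, the brightest by mean over the 6 arrays stood for it, and all 76 were among the 12946 genes bright enough to be tested. Mrpl30 and Mrpl53 were on the array only in probe sets shared with another gene and were not used here.

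The mitochondrial ribosome translates the messenger RNAs of mitochondrial DNA, which encode core subunits of the respiratory chain and of ATP synthase. Its ribosomal RNAs come from mitochondrial DNA, whereas all of its proteins are encoded in the nucleus, made in the cytosol and imported. Many of its proteins have counterparts in bacterial ribosomes, and others are found only in mitochondria. The heart, which draws most of its ATP from oxidative phosphorylation, keeps a large mass of mitochondria. Estrogen-related receptor alpha (ERRα), encoded by Esrra, is an orphan nuclear receptor that binds DNA elements built around AAGGTCA and controls genes of mitochondrial energy metabolism.

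Hearts of 3 WT and 3 ERRa-null (KO) male mice under basal conditions were each hybridised to an array of their own. The labels give 5 of the mice as C57BL/6J aged 2 to 3 months; for WT 1 they give no strain or age, and the header of its array calls it by the number of WT 3. The sources used here do not say how the null allele was made. Values are the deposited MAS5 signals, an array brightness on a linear scale. The hearts labelled KO did not all match that label. In WT 1 to 3 the brighter Esrra probe set read 368.1, 394.4 and 349.1. It read 24 and 18 for the hearts labelled KO 2 and KO 3 but 180.1 for the heart labelled KO 1, which is 48.6% of the WT mean. Its log2 difference was -2.58 (SE 0.475, limma adjusted p = 0.0678 over all probe sets), and -3.39 without the heart labelled KO 1 (limma adjusted p = 4.25e-06). The calls of mitochondrial ribosomal protein genes below come from another fit, without dim probe sets and with each gene read from its brightest set. Over all probe sets Mrpl55 and Mrpl34 did not pass either (limma adjusted p = 0.101 and 0.144). The adjusted p of Esrra in the fit without dim probe sets is not given here. Because of its Esrra signal, the heart labelled KO 1 was also left out for the main counts and medians and for several genes. The arrays also differed in overall level. WT 1 was the brightest, with a median signal of 16 against 12.4 to 13.7 in the other hearts, so many counts, medians and ranges, though not those by motif, are also given without it. Quantile normalization, a further alternative, gives all arrays the same distribution of signals.

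Mrpl55 and Mrpl34 fell in the hearts labelled KO, and no other gene of the mitochondrial ribosome passed the test (limma on log2(signal + 16), two-sided, Benjamini-Hochberg adjusted p under 0.05 over all 12946 genes). Both encode large subunit proteins: Mrpl55 has no bacterial counterpart, and Mrpl34 is the mitochondrial form of a small basic protein of the bacterial large subunit. The 2 genes are 2.63% of the 76, and over all genes 1.18% were called lower. None of the 76 rose, against 1.78% of all genes called higher, and none was higher at an unadjusted limma p under 0.05, against 6.07% of all genes. The remaining members showed smaller differences that were mostly negative. Among all 76 genes, these 2 included, 66 were below 0 and the median was -0.165, which is 89.2% of the WT level at the median gene. Over all genes 55% of the differences were negative and the median was -0.0276.

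In WT 1 to 3 the Mrpl55 signal stood at 773.3, 599.2 and 593.9, and in the hearts labelled KO 1 to 3 at 447, 380.3 and 346.9. Every heart labelled KO lay below every WT heart, with the heart labelled KO 1 the highest of its group. The group means were 655 ± 102 and 391 ± 51.0 (SD, n = 3 each), so that the KO mean was 59.7% of the WT mean. The log2 difference was -0.72 (SE 0.157, limma adjusted p = 0.00318), and it was -0.81 (adjusted p = 0.00126) without the heart labelled KO 1 and -0.68 (adjusted p = 0.00929) after quantile normalization. Without WT 1 it was -0.60 and missed the threshold narrowly (limma adjusted p = 0.0506).

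For Mrpl34 the WT hearts 1 to 3 read 575.6, 403.9 and 444.8, and the hearts labelled KO 1 to 3 read 327.6, 275.6 and 261.3. The groups again did not overlap, and WT 1 and the heart labelled KO 1 were the highest of their groups. Its means were 475 ± 89.7 in WT and 288 ± 34.9 in KO (SD, n = 3 each), 60.7% of WT. The log2 difference was -0.68 (SE 0.163, limma adjusted p = 0.00827), -0.77 (adjusted p = 0.00454) without the heart labelled KO 1 and -0.64 (adjusted p = 0.0125) after quantile normalization. Without WT 1 it was -0.54 (limma adjusted p = 0.0733). With no filter on dim probe sets, which puts 18193 genes into the test, neither gene passed (limma adjusted p = 0.0618 for Mrpl55 and 0.0928 for Mrpl34). The call of Mrpl34 was also lost with the mean of its probe sets, 1 of them dim (-0.425, limma adjusted p = 0.247), with no intensity trend (adjusted p = 0.0689), without the heart labelled KO 2 (adjusted p = 0.0575) and without that labelled KO 3 (adjusted p = 0.074). Mrpl55 kept its call in these, and lost it after quantile normalization without WT 2 (limma adjusted p = 0.0508) or WT 1 (0.0614); Mrpl34 lost it there without WT 1 (0.0809) or the heart labelled KO 2 (0.0568).

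**Figure D1:**
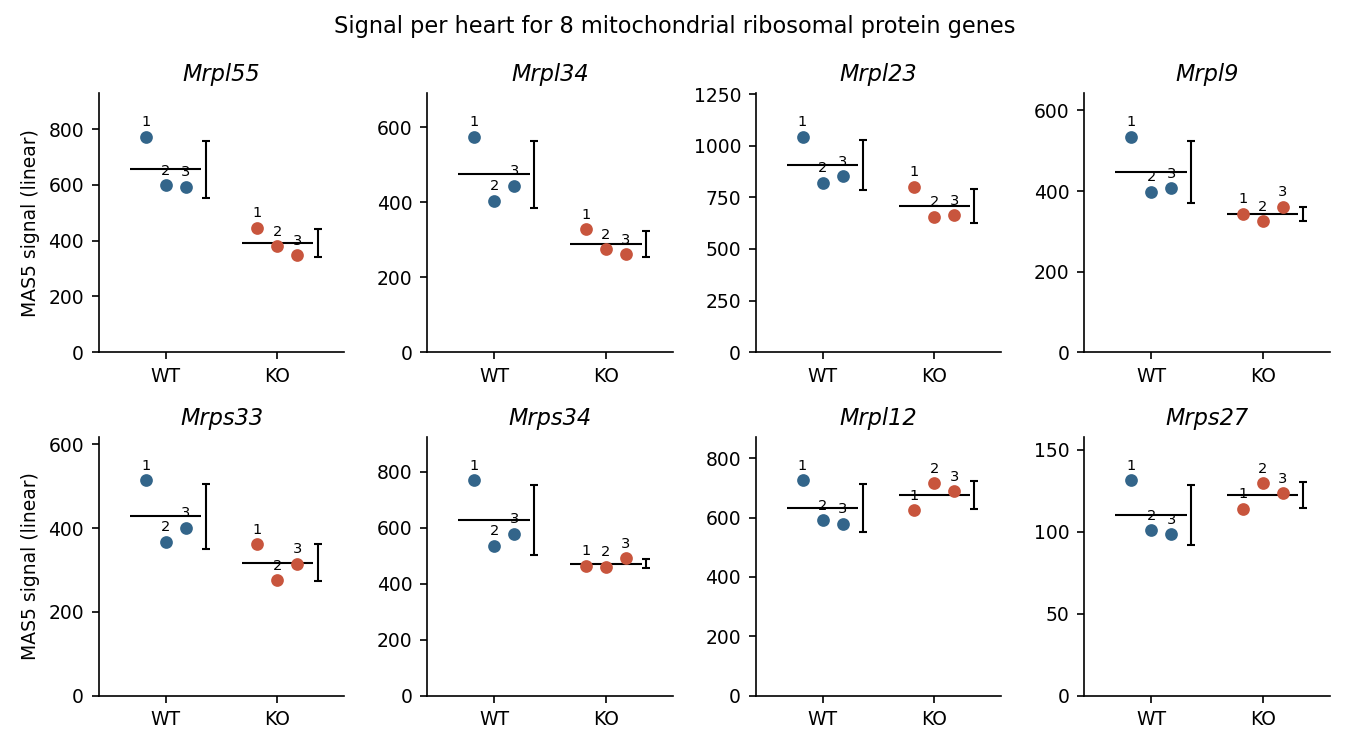
Deposited MAS5 signal (linear, axis from 0) of 8 mitochondrial ribosomal protein genes in each heart; the number beside a point is the mouse number, the horizontal line the group mean and the bar beside it the SD (n = 3). For Mrpl55 and Mrpl34 the hearts labelled KO lie well below the WT hearts. In every panel WT 1 is the highest of the WT hearts, and in Mrpl12 and Mrps27 the KO mean is the higher one.

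The promoters of these genes are shown because ERRα acts through DNA elements near gene starts. The 250 bases before the start were read for 67 of the 76 genes from the RefSeq promoter table (build GRCm38.p6), and 9 had no entry. Motif matches are in capitals, all sequences run 5′ to 3′ on the strand of the gene, and a match describes letters only. The 4 promoters are those of Mrpl55 (chr11:59202236-59202485, plus strand) and Mrpl34 (chr8:71464676-71464925, plus strand), which passed the test, of Mrpl9 (chr3:94443086-94443335, plus strand), which passed only under another scaling of the arrays, and of Mrps21 (chr3:95871515-95871764, minus strand), which holds 2 copies of the ERR core AAGGTCA.
Mrpl55: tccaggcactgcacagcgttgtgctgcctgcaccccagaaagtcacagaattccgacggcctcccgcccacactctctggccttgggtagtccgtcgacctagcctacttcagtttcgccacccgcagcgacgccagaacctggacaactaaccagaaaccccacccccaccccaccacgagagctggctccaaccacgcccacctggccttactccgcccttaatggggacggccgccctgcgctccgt
Mrpl34: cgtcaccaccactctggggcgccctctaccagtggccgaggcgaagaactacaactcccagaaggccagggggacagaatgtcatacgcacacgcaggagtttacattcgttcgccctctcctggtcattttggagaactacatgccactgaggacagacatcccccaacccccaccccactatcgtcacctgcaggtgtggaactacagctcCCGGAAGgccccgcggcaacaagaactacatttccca
Mrpl9: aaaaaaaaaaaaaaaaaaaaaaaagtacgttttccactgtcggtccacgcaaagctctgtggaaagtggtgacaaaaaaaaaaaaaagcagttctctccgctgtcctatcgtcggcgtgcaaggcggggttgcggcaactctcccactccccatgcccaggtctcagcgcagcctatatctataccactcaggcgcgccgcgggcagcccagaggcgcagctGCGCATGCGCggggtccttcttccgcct
Mrps21: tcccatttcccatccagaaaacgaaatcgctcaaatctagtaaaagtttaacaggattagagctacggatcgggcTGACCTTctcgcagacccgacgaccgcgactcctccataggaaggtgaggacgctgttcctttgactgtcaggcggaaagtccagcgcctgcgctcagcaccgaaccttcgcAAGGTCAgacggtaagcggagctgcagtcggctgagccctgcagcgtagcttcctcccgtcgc

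The longer ERR response element, searched as TNAAGGTCA on both strands, was found in 0 of the 67 windows, against 1.3% of all 27025 genes in the table and 0.845% of the 10409 tested genes with an entry. At shares this low, 0 matches in 67 windows do not set the members apart from other genes. The core of this element, AAGGTCA, was found in 3 of the 67 (Mrpl36, Mrps15 and Mrps21), or 4.48%, against 3.56% of the tested genes. Every match to the longer element also holds this core. Mrps21 carries it from 63 to 57 bases before the start and, on the opposite strand, from 175 to 169 bases before it. The motif of ETS factors such as GABP, CCGGAAG, was in 17 of 67 windows (25.4%), against 14.3% of the tested genes, and Mrpl34 has it from 37 to 31 bases before its start. The palindromic motif of NRF-1, spelled by the capitals in the Mrpl9 sequence, was in 3 windows (4.48% against 1.72%), among them that of Mrpl9, where it lies from 28 to 19 bases before the start. The YY1 motif, AANATGGCG, was in 2 (2.99% against 2.26%). The Mrpl55 window held none of the 5 motifs. Members with the ETS motif had a median difference of -0.143 with 14 of 17 negative, and those without it -0.181 with 44 of 50 negative. For AAGGTCA the medians were -0.219 over the 3 members with it and -0.157 over the 64 without, for the YY1 motif -0.224 over 2 and -0.154 over 65, and for the NRF-1 motif -0.12 over 3 and -0.167 over 64. The sets with these 3 motifs are too small to describe more than their own members.

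Among the other large subunit genes the smallest p-values belonged to Mrpl23, Mrpl57, Mrpl9, Mrpl41, Mrpl14, Mrpl16, Mrpl4, Mrpl28, Mrpl17 and Mrpl2, none of which passed the test. Mrpl23, which has a bacterial counterpart, read 1044.6, 821 and 852.3 in WT and 801, 656 and 663.6 in the hearts labelled KO 1 to 3 (log2 difference -0.35, SE 0.147, limma adjusted p = 0.263). The groups did not overlap, although KO 1 lay close under WT 2. Mrpl9, another protein with a bacterial counterpart, read 535.1, 397.9 and 407.6 in WT and 343.9, 324.5 and 360.6 in KO. Its difference of -0.36 (SE 0.160) had a limma adjusted p of 0.318 as deposited and 0.0473 after quantile normalization. Mrpl57 and Mrpl41, which are found only in mitochondrial ribosomes, were at -0.39 and -0.31 with groups that did not overlap. Mrpl14 read 350.5 in the heart labelled KO 1, within the WT range of 309.6 to 403.6, and 225.3 and 229.4 in KO 2 and KO 3, so that its difference of -0.35 became -0.55 (limma adjusted p = 0.115) without that heart. Mrpl16, Mrpl4, Mrpl28, Mrpl17 and Mrpl2 had differences from -0.29 to -0.20, and of these the groups of Mrpl4 and Mrpl17 did not overlap. Without WT 1 these 10 genes lay between -0.24 and -0.095, with Mrpl57 at -0.19 and Mrpl9 at -0.22 (limma adjusted p = 0.436 and 0.351).

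No small subunit gene passed the test in limma, and 4 of the 29 were lower at an unadjusted p under 0.05 (13.8%, against 6.44% of all genes). Mrps33, a protein of the mitochondrial ribosome with no bacterial counterpart, had the lowest value of this subunit, with 514.6, 367.8 and 400.8 in WT and 362.2, 275.1 and 314.6 in KO (log2 difference -0.41, SE 0.164, limma adjusted p = 0.223). Mrps34, also without a bacterial counterpart, read 770.8, 536.8 and 578.4 in WT and 464.1, 461 and 491.1 in KO. The 3 hearts labelled KO were nearly equal for this gene, all under WT 2, and its difference of -0.38 (SE 0.155) passed after quantile normalization (limma adjusted p = 0.228 as deposited and 0.038 after it). Mrps12, whose bacterial counterpart lies at the decoding centre, went from 428 ± 104 to 318 ± 29.9 (SD, n = 3 each), a difference of -0.39 (limma adjusted p = 0.274). Mrps21 was at -0.33, Mrps9 at -0.31, Mrps7 at -0.31, Mrps24 at -0.28 and Mrps18b at -0.27, with limma adjusted p between 0.323 and 0.560. Except for Mrps24, the groups of these genes did not overlap. Without WT 1 the 8 small subunit genes lay between -0.29 (Mrps7) and -0.13 (Mrps9), with Mrps33 at -0.27, Mrps34 at -0.23 and Mrps12 at -0.20.

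A few members lay above 0, none of them past the test. Mrps27, which encodes an RNA-binding protein of the small subunit, had the most positive difference, 0.14 (SE 0.171), with 131.6, 101.1 and 98.7 in WT and 114.1, 129.6 and 123.6 in KO. WT 1 was its highest heart and the other WT hearts were its lowest. Mrpl12, the counterpart of the bacterial stalk protein that recruits translation factors, was at 0.10 (SE 0.149), Mrpl3 at 0.093 (SE 0.157), Mrpl48 at 0.087 (SE 0.157) and Mrpl42 at 0.059 (SE 0.116). Without WT 1 Mrps27 was at 0.25, Mrpl12 at 0.20 and Mrpl3 at 0.23. Mrpl42, Mrpl39 and Mrpl51 had the brightest probe sets, with group means of 3321 and 3441, 1950 and 1994, and 1879 and 1693 in WT and KO. Mrpl1, Mrps27 and Mrps5 had the dimmest, with 110 or less, 131.6 or less and 147.2 or less in every heart. Brightness differs between probe sets for reasons other than transcript level, so these figures do not rank the genes.

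**Figure D2:**
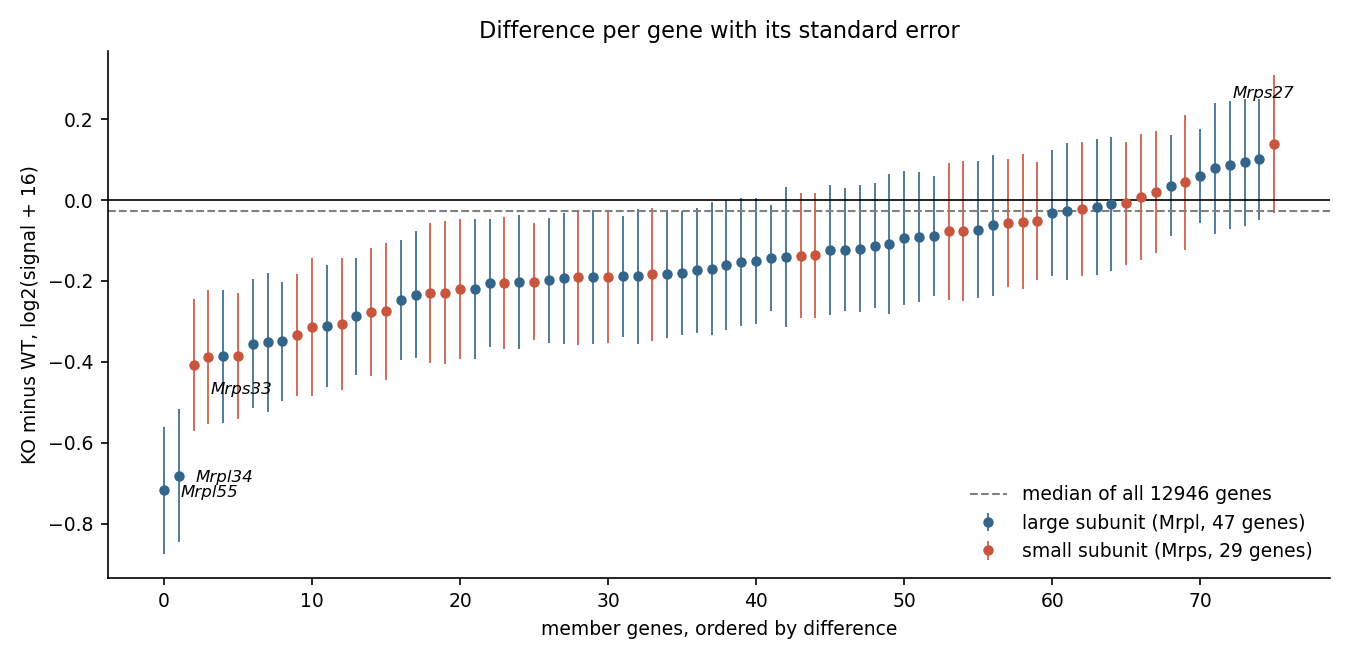
Log2 difference (KO minus WT, on log2(signal + 16)) of the 76 genes, ordered from lowest to highest, with the standard error from limma. Points are coloured by subunit, and the dashed line is the median of all 12946 genes, -0.0276; Mrpl55 and Mrpl34 stand apart from a run of 74 genes between -0.41 and 0.14.

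The large and small subunits gave similar values. The median difference was -0.154 over the 47 large subunit genes, 41 of them negative (87.2%), and -0.191 over the 29 small subunit genes, 25 of them negative (86.2%). The middle part of the values, from the lower to the upper quartile, ran from -0.20 to -0.081 in the large and from -0.27 to -0.054 in the small subunit. After quantile normalization the medians were -0.124 and -0.161, and without the heart labelled KO 1 they were -0.148 and -0.169. Without WT 1 they were -0.034 and -0.0486. The small subunit had the lower median in each of these settings, by less than the spread within either subunit. Some names do not match the place of the protein: Mrps30 and Mrps18a belong to the large subunit of the assembled mammalian ribosome, and Mrps36 is not counted as a ribosomal protein there. With these moved or left out the medians were -0.151 and -0.196. By origin, among members assigned to a class, the 28 large subunit proteins with a bacterial counterpart had a median of -0.177 and the 17 without one -0.143; in the small subunit these were -0.205 over 15 and -0.191 over 9. Without WT 1 the 4 medians were -0.0507, 0.00213, -0.0848 and -0.038 in this order.

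**Figure D3:**
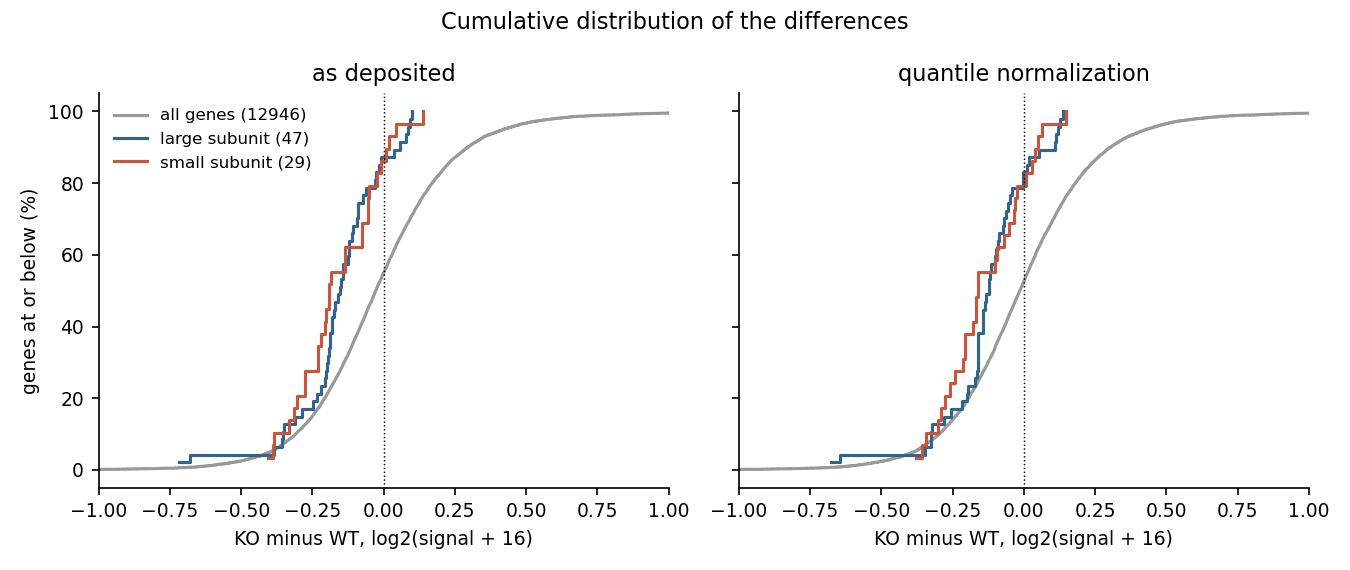
Share of genes (percent) at or below each log2 difference (KO minus WT) for the large subunit (47 genes), the small subunit (29 genes) and all 12946 genes, as deposited on the left and after quantile normalization on the right. Both subunit curves lie to the left of the curve of all genes around 0 on both sides, and the lowest steps of the large subunit are Mrpl55 and Mrpl34.

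For 21 of the 76 genes every heart labelled KO lay below every WT heart (27.6%), against 9.41% of all genes, and for none did every such heart lie above, against 6.81%. Of the 21, 10 were in the large and 11 in the small subunit. At an unadjusted p under 0.05, 11 members were lower (14.5%), against 6.44% of all genes. After quantile normalization 4 members were lower (Mrpl55, Mrpl34, Mrpl9 and Mrps34), or 5.26%, against 1.44% of all genes, and 62 of 76 were negative against 52.5%. The groups then did not overlap downwards for 28 members (36.8%, against 12.5% of all genes) and upwards for 2 (2.63%, against 11.3%). Without the heart labelled KO 1 the same 2 genes were called, against 1.61% of all genes, 62 were negative against 54.7%, and the remaining hearts did not overlap downwards for 27 (35.5%, against 16.5%). Without WT 1 none was called in limma, against 0.17% of all genes, with 7 lower at an unadjusted p under 0.05 (9.21%, against 3.9% of all genes). In that setting the groups did not overlap downwards for 22 members (28.9%, against 10.5% of all genes) and upwards for 6 (7.89%, against 22.4%), 48 of 76 were negative (63.2%) against 39.5%, and the median was -0.0361 against 0.0581. With quantile normalization as well, leaving out WT 1 gave 64 negative members (84.2%, against 52.1% of all genes) and a median of -0.113 against -0.0122. The gap between the member median and the median of all genes was -0.138 as deposited, -0.121 after quantile normalization, -0.124 without the heart labelled KO 1 and -0.0942 without WT 1.

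Heart by heart, the share of members below the WT mean was 86.8%, 84.2% and 76.3% in the hearts labelled KO 1 to 3, against 53.8%, 59.2% and 48.2% of all genes. All 3 of these hearts were below the WT mean for 52 of the 76 genes (68.4%), against 28.9% of all genes. The WT hearts themselves were far from even on the deposited scale. Each set against the mean of the other WT hearts, WT 1 had 2.63% of the members below, WT 2 96.1% and WT 3 90.8%, where all genes gave 13.9%, 73.4% and 74.7%. WT 1 was the highest of all 6 hearts for 70 of the 76 genes and for 6616 of all 12946. Against WT 1 alone, 96.1% to 98.7% of the members were lower in each heart labelled KO (67.1% to 76.5% of all genes). Against WT 2 or WT 3 alone the share was 50% to 71.1%, while that of all genes was 37.7% to 47.3%. Set against any single WT heart, the members were lower more often than genes in general, and by far most often against WT 1.

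After quantile normalization the WT hearts came closer together, with 31.6%, 59.2% and 47.4% of the members below the mean of the others in WT 1 to 3. The hearts labelled KO 1 to 3 had 81.6%, 73.7% and 80.3% below the WT mean, against 51.1%, 50.8% and 51.5% of all genes. On this scale each of the KO hearts had a larger share below than any WT heart. As deposited this did not hold, with 96.1% below in WT 2 and 90.8% in WT 3. The references also differ. Each WT heart was set against the other WT hearts, so the WT deviations cancel for every gene, while those of the KO hearts need not. The median deviation of the members on the log2 scale was 0.034, -0.0252 and 0.000262 for WT 1 to 3, against -0.119, -0.082 and -0.164 for the hearts labelled KO. The heart labelled KO 1, whose Esrra signal was the highest of its group, lay between the other hearts labelled KO on this scale. By subunit the shares in KO 1 to 3 were 80.9%, 76.6% and 80.9% for the large and 82.8%, 69% and 79.3% for the small subunit.

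**Figure D4:**
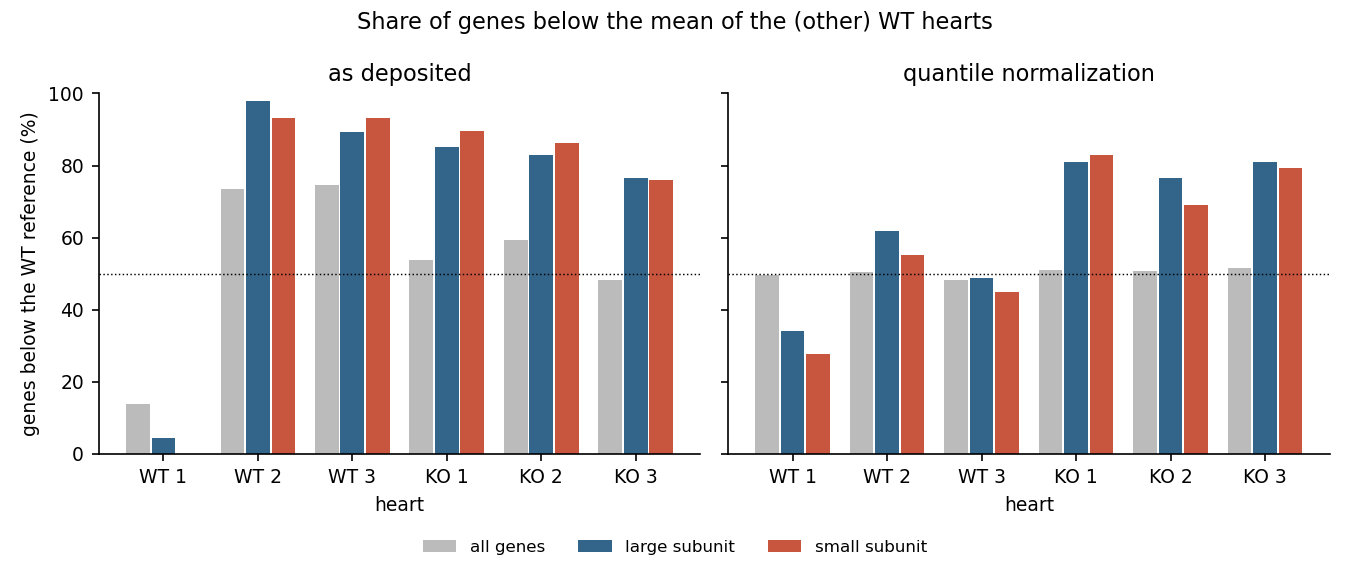
Share of genes (percent, axis from 0) below the WT reference in each heart, for all genes, the large subunit and the small subunit; the reference is the mean of the WT hearts, leaving out the heart itself where it is WT, and the dotted line marks 50%. As deposited, on the left, WT 1 stands apart with 2.63% of the 76 members below; after quantile normalization, on the right, the KO hearts hold the highest shares, 73.7% to 81.6% of the members.

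Genes with several probe sets gave further readings from the same 6 arrays. Of the 76 genes 42 had more than 1 probe set, and 60 further probe sets of 36 genes passed the brightness filter. The median of these 60 was -0.11, 40 were below 0 and 44 had the sign of the brightest set of their gene. In the brightest sets 55% of all genes and 86.8% of the members were negative. The 60 sets were counted only as deposited, with WT 1 included. No such shares were counted for the further probe sets of all genes, so the 60 have no like background here. Mrpl9 was at -0.36 in its brightest set and at -0.11 and -0.19 in the others, and Mrpl3, above 0, was at 0.093, 0.060 and 0.091 in its sets. The sets of Mrps9 differed in sign. Its brightest was at -0.31, and the others that passed the filter were at 0.049, -0.49 and -0.058. Mrpl55, Mrps33, Mrps34 and Mrpl23 had a single set each. The second set of Mrpl34 was dim, with 3.2 to 16.5 over the 6 hearts, and its difference was -0.17 (SE 0.240). The sets of Mrps14 differed most in size. Its brightest was at -0.14, while another read 95.3, 89.2 and 70.8 in WT and 36.3, 47.4 and 51.4 in KO, a difference of -0.73 (SE 0.174, limma adjusted p = 0.192 over all probe sets). In that same fit over all probe sets the limma adjusted p was 0.101 for Mrpl55 and 0.144 for Mrpl34, so none of these sets passed there. Mrpl39 was above 0 in both of its bright sets, at 0.036 and 0.18.

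Mitochondrial translation needs further proteins, whose genes were counted from lists fixed with earlier results of these data known. Of 4 ribosomal proteins named outside the Mrp series 0 passed, and all were negative (median -0.225); Gadd45gip1 was at -0.43 (SE 0.167, limma adjusted p = 0.200) and Dap3, a small subunit protein, at -0.20. Of 13 translation factors and helpers 0 passed and 11 were negative, with a median of -0.162. Tufm, the elongation factor that brings aminoacyl-tRNA to the ribosome, was at -0.30 (SE 0.162). Of 21 mitochondrial aminoacyl-tRNA synthetases 0 passed and 19 were negative, with a median of -0.139. Aars2, the alanyl-tRNA synthetase, went from 75.3 ± 10.5 to 47.9 ± 2.39 (SD, n = 3 each) and was at -0.51 (limma adjusted p = 0.111, and 0.036 after quantile normalization). Of 24 genes of ribosome assembly and ribosomal RNA modification 0 passed and 19 were negative, with a median of -0.146. Tfb1m, which methylates the small subunit ribosomal RNA, read 136.2, 89.6 and 123.6 in WT and 66.7, 76.9 and 75.9 in KO, without overlap, and was at -0.56 (SE 0.175, limma adjusted p = 0.0733, and 0.0429 after quantile normalization). Of 15 genes of mitochondrial transcription, DNA upkeep and their nuclear regulators 0 passed and 9 were negative (60%, against 55% of all genes), with a median of -0.108. In the hearts labelled KO 1 to 3, 46.7%, 80% and 46.7% of this list lay below the WT mean, against 53.8%, 59.2% and 48.2% of all genes. The 3 of its genes with the smallest p were Tfb2m, Twnk and Ssbp1. Tfb2m, a factor of the mitochondrial RNA polymerase, was at -0.42 (limma adjusted p = 0.182). Twnk, the helicase of mitochondrial DNA, was at -0.45, and Ssbp1, the mitochondrial single-stranded DNA-binding protein, at -0.41. Ssbp1 passed without the heart labelled KO 1 (limma adjusted p = 0.0217). At an unadjusted limma p under 0.05, the counts of lower genes in these 5 lists, in the order given, were 1, 0, 3, 3 and 3, against 6.44% of all genes, and no gene was higher, against 6.07%. Without WT 1 the medians of the 5 lists were -0.107, -0.0577, -0.0316, -0.0125 and -0.0328, with 3, 8, 12, 12 and 8 genes negative, where 39.5% of all genes were negative and their median was 0.0581. In that setting Aars2 and Tfb1m were at -0.42 and -0.45 (limma adjusted p = 0.205 and 0.220).

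The respiratory complex made with these ribosomes and the cytosolic ribosome gave a scale for these values. The 33 complex I subunits, which depend on mitochondrial translation for their partners encoded in mitochondrial DNA, had a median of -0.155 as deposited, with 0 called and 32 negative, and of -0.0993 after quantile normalization. The 41 cytosolic ribosomal proteins, which belong to the other ribosome of the cell, had a median of -0.0374, with 0 called and 27 negative, and it turned to 0.0165 after quantile normalization, where the median of the mitochondrial ribosomal proteins was -0.135. Leaving out the heart labelled KO 1 gave medians of -0.189 for complex I (33 negative), -0.0497 for the cytosolic (28 negative) and -0.152 for the mitochondrial ribosomal proteins. Without WT 1 the medians were -0.0793 for complex I (29 negative), 0.0427 for the cytosolic (11 negative) and -0.0361 for the mitochondrial ribosomal proteins. At an unadjusted limma p under 0.05, 9 of the 33 and 1 of the 41 were lower, against 6.44% of all genes. The complex I gene Ndufv3 passed after quantile normalization (limma adjusted p = 0.0479). None of these differences between groups of genes was tested, since genes are not replicates.

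**Figure D5:**
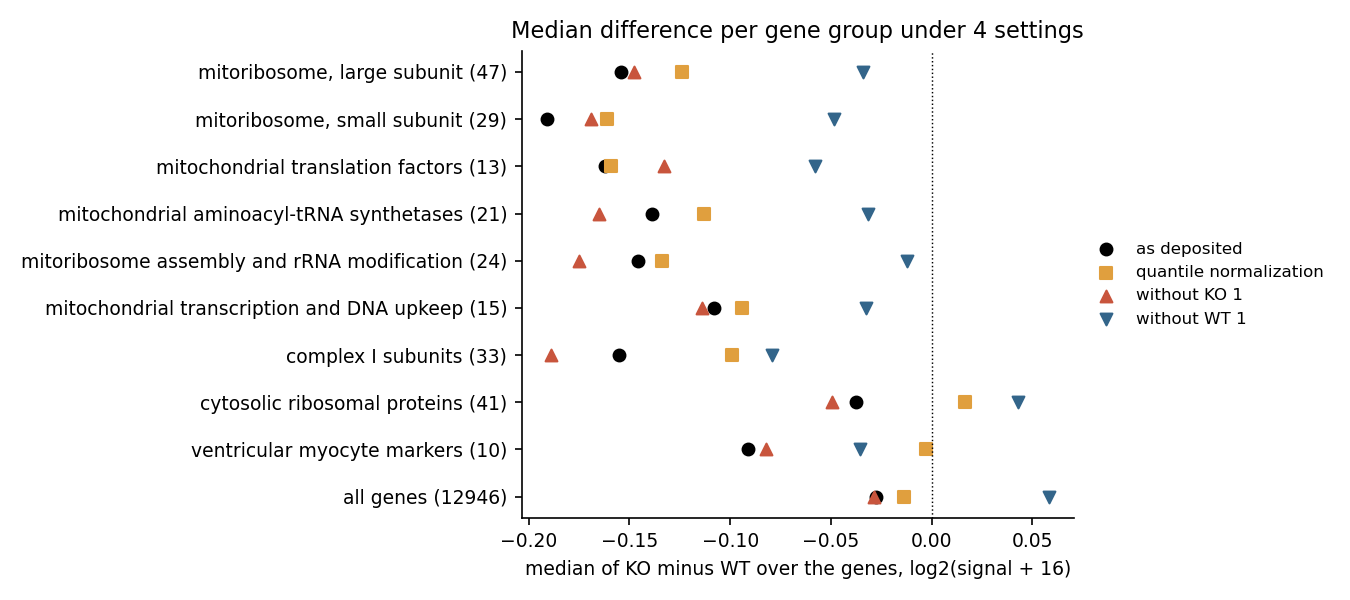
Median log2 difference (KO minus WT) over each gene group, with the number of genes tested in brackets, as deposited, after quantile normalization, without the heart labelled KO 1 and without WT 1. Both subunits lie below 0 and below all genes in each setting, whereas the cytosolic ribosomal proteins lie close to all genes.

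The hearts also differed in markers of other cells, and in whole hearts fewer cells of a type and less RNA per cell cannot be told apart. All 8 atrial myocyte markers rose, with a summed signal of 3134 to 9959 in WT and 14292 to 17001 in the hearts labelled KO. Of 10 fibroblast markers 1 rose, with sums of 10984 to 13231 and 14044 to 16296, which do not overlap, and all 10 were higher at an unadjusted limma p under 0.05. Of 7 adipocyte markers tested 5 rose and 2 had a negative difference, with sums of 11430 to 12574 and 11613 to 13166. These sums do not show the size of single rises. Car3 read 29.7, 42.8 and 67.8 in WT and 235, 1331.5 and 1147.7 in the hearts labelled KO 1 to 3. Adipoq read 22.3, 15.7 and 17 in WT and 54, 390.7 and 323 in KO, so that both were lowest in KO 1 within that group. None of the 10 ventricular myocyte markers passed in limma, and 1 was lower at an unadjusted p under 0.05. Their sums were 70083 to 78174 in WT and 66503 to 70407 in KO. All 10 had a negative difference as deposited, with a median of -0.091. After quantile normalization 5 were negative and their median was -0.00298, where that of the ribosomal proteins was -0.135. Without WT 1, 7 of these markers were negative, with a median of -0.0357. The endothelial (10 tested), leukocyte (7) and erythroid markers (2) had none past the limma test, with 1, 0 and 0 higher at an unadjusted p under 0.05. Of the others, 2 of 8 smooth muscle and pericyte markers rose, and of 4 skeletal muscle markers 1 rose and 1 fell. Over all genes 1.78% were called higher and 1.18% lower, and at an unadjusted limma p under 0.05 these shares were 6.07% and 6.44%. None of the marker genes was at 0 in every heart, and Lep, Cd3e, Cd79a, Hba-a1, Tnnt3, Myh4, Myh1 and Actn3 stayed under a signal of 20. The counts of markers that rose moved with the setting. After quantile normalization 8 atrial, 2 adipocyte, 6 fibroblast and 0 smooth muscle and pericyte markers rose (against 2.01% of all genes). Without WT 1 these were 4, 1, 1 and 0 (against 0.811%). Without the heart labelled KO 1 they were 8, 5, 1 and 1 (against 2.33%), with 1 leukocyte marker higher and 1 ventricular myocyte marker lower (against 1.61% of all genes lower). The part of these cells in the result for the ribosomal proteins was not tested.

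Genes close to Esrra can carry differences linked to the targeted locus, and 3 members lay within 100 tested genes of it on either side in gene order. Mrpl49, 21 tested genes away, was at -0.19 (SE 0.167), with 228.4, 192.4 and 185.7 in WT and 181.5, 182.9 and 160.9 in KO. Mrpl11, 63 genes away, was at -0.19 and Mrpl16, 96 genes away, at -0.29. None of the 3 passed the test, with limma adjusted p from 0.411 to 0.735, and neither Mrpl55 nor Mrpl34 is among them.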

How the data were processed

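Per the labels' protocols, RNA from the 6 hearts was isolated by a kit for fibrous tissue and given a biotin label. The authors deposited an intensity for each probe set, made with MAS5 per the submitters' processing notes. The sources used here give no scaling target and no detection calls. Intensities were used with no further normalization. Of 45099 probe sets, 62 are controls and 34958 have 1 symbol. The mean of log2(signal + 16) had to reach the 40th percentile of the other probe sets (4.59), and a gene was read from its brightest set. This scale understates changes of dim genes. Groups were compared with limma 3.58.1 (R 4.3.3), lmFit and eBayes with an intensity trend, 3 against 3 hearts, two-sided. The number of arrays limits the precision. The fit was tested on simulated data with independent noise for each gene and heart. The simulated arrays had no shift in overall level like that of WT 1, so this test says nothing about such a shift. Promoter bases came from RefSeq (GRCm38.p6).

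The members and lists were chosen with earlier results of these data known. Members named were those past the threshold, the 12 large and 8 small subunit genes of smallest p, the 4 most positive, the 3 brightest and 3 dimmest and those near Esrra; for each other list up to 3 genes of smallest p were eligible; Mrps14, the second probe sets and the members holding motifs were named after their values were seen. Cytosolic ribosomal proteins were taken by symbol. Hearts of equal mouse number were not treated as pairs. Correlations over genes of their deviations from the group means were 0.0266, -0.0165 and 0.0288. These values do not tell whether such mice were littermates or handled together.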

Additional observations from a re-analysis of the deposited data

How the results depend on the processing

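The 66 negative members stayed between 48 and 70 in every setting, and the median of the members stayed below 0 and below that of all genes throughout; with array weights it was -0.0823 with 55 negative. Lower members numbered 2 as deposited, 4 with quantile normalization and with cyclic loess, 0 with no filter on dim probe sets, and 1 with the mean of all passing probe sets (Mrpl34 then at -0.425, limma adjusted p = 0.247) and with no intensity trend. Leaving out each heart gave 0 to 2 lower and 0 higher members, 48 to 70 negative, medians of -0.216 to -0.0361 for all members, -0.211 to -0.034 for the large and -0.238 to -0.0486 for the small subunit, and a mean share below the WT mean of 61.4% to 89.9%; without WT 1 no member was called, and without KO 2 or KO 3 Mrpl55 alone was. The number of genes higher was 231 and of genes lower 153. With no filter these were 48 and 18, with no intensity trend 114 and 57, with array weights 434 higher, and with each heart left out 105 to 301 and 22 to 208. After quantile normalization with each heart left out, chosen after seeing the data, genes higher were 37, 53 and 138 without WT 1 to 3 and 514, 59 and 98 without KO 1 to 3, and genes lower 16, 19, 47, 480, 34 and 56 in that order. There, 0 to 8 members were lower (0 without WT 1, 8 without KO 1), 59 to 64 negative, the member median lay from -0.148 to -0.103 and the mean share from 75.9% to 80.9% (76.8% without WT 1 and 77% without KO 1). Esrra passed without KO 1, with a pseudocount of 1 (-3.07), of 4 (-2.95), with median centring (-2.57) and with the replicate block (-2.58), and lay at -3.39 to -2.12 with each heart left out (-3.36 to -2.09 after quantile normalization); with the mean of probe sets it was at -1.5 (limma adjusted p = 0.13). The mouse number as a replicate block changed the call of no named member and left 2 members lower, while genes higher became 237 and genes lower 175. The sign turned for values near 0: with the mean of probe sets Mrpl48 was at -0.00445 and Mrps5 at 0.00172, with array weights Mrps5 was at 0.0246, and with single hearts left out Mrpl1 ran from -0.164 to 0.000802, Mrps5 from -0.143 to 0.0513, Mrpl3 from -0.00182 to 0.228, Mrpl42 from -0.0481 to 0.162, Mrpl48 from -0.0299 to 0.224 and Mrpl39 from -0.0302 to 0.109 (-0.0108 after quantile normalization without KO 2). The cause of these moves was not tested.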
